A study of Mus musculus with 96 samples.

Results

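The 7 genes described here are Mpo, Prtn3, Lyz2, Cfp, Csf1r, Csf2rb and Csf3r. They were chosen by name from the deposited gene counts, all 7 were present among 19836 gene symbols, and all 7 had at least 30 reads over the 96 cells, as did 15239 symbols in all. The first 4 encode myeloid granule and effector proteins and the last 3 encode receptors for myeloid growth factors.

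The cells were sorted singly from C57BL/6 mouse embryos, and their cDNA was made with a SMART-Seq kit. From E11.5 (E gives the embryonic day) came 48 cells of the AGM (aorta-gonad-mesonephros) region and 16 cells of the yolk sac, both sorted as pre-HSC with the gate Ter119-CD11b-CD144+c-kit+EPCR+. A further 16 cells were fetal liver haematopoietic stem cells (HSC) of E12.5, gated Ter119-Sca-1+c-kit+EPCR+. The remaining 16 were fetal liver HSC of E14.5, gated Ter119-Sca-1+c-kit+CD48-CD150+. AGM and yolk sac shared age and gate. The liver groups differed from them in tissue, age and gate, and from each other in age and gate, so the parts of these in such a difference cannot be told apart. Since no animal or litter is named, a group counts as 1 sample. No difference below has a replicate check, and intervals on pooled reads or shares of cells cover counting error only: the reads were amplified by PCR and carry no molecular identifiers, so they are not independent molecules.

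Myeloid granules store antimicrobial enzymes and proteases that neutrophil and monocyte precursors begin to make well before they mature. The receptors carry signals from growth factors that drive survival and division along the myeloid lineages. Low levels of such transcripts are also known in multipotent progenitors, a state often called lineage priming.

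Lyz2, Prtn3 and Mpo were widely detected, and Cfp and the 3 receptors were read in fewer cells. Over the 96 cells, at least 1 read was counted for Lyz2 in 89, for Prtn3 in 84 and for Mpo in 66. The counts were 33 cells for Csf3r, 29 for Cfp, 12 for Csf1r and 11 for Csf2rb. Every gene had at least 1 cell at 0 reads in every group, so the cells' ranges overlapped in every pair of groups.

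Cells had between 250235 and 1926882 reads, and 1 cell had fewer than 2000 genes detected. That cell, the library labelled liver E12.5 cell 8, had 1011 genes and 250235 reads. It had reads of 0 of the 10 stem and progenitor marker genes examined, Kit, Ptprc, Procr and Ly6a among them. The macrophage markers C1qa, C1qb, C1qc, Mrc1 and Marco had reads there, and the macrophage list summed to 19641 CPM (a gene's reads scaled to a total of 1000000 reads), against 0 in 14 of the other 15 liver E12.5 cells and 180.9 CPM in cell 15. Of that list, Adgre1, Timd4 and Cx3cr1 were at 0 reads in liver E12.5. Erythroid marker genes summed to 10066.5 CPM in cell 8, the highest such sum in liver E12.5. Among the genes of the gates, Kit was read in 43 AGM cells (of 48), and in 12, 12 and 14 of the 16 cells from yolk sac, liver E12.5 and liver E14.5. Cdh5, which encodes CD144, was read in 45 AGM cells but in 7 of 16 yolk sac cells. Itgam, which encodes the CD11b excluded by the E11.5 gate, had reads in 8 AGM and 6 yolk sac cells. At E14.5, Cd48 had reads in 6 cells and Slamf1, which encodes CD150, in 4. In 4 liver E14.5 wells, numbers 3, 8, 13 and 16, erythroid marker genes summed to between 45946 and 227626 CPM, and the next highest cell of that group had 1510 CPM.

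Promoter sequence is shown for the 3 most widely detected genes, which were all 3 read in 58 of 96 cells. The RefSeq table of GRCm38.p6 holds 32851 promoters, with entries for Mpo, Prtn3, Lyz2, Cfp and Csf3r among the members. Printed are the 250 bases before the RefSeq start site, 5′ to 3′ on the gene's strand. The GENCODE M21 gene models, whose spans are given below, start elsewhere. The Prtn3 stretch lies within its GENCODE span, and the Mpo and Lyz2 stretches overlap theirs. Capitals mark GAGGAAGT, a form of the motif of PU.1 (the product of Spi1), and ACCACA, a form of the RUNX motif.
Mpo, chr11:87793534-87793783, plus strand: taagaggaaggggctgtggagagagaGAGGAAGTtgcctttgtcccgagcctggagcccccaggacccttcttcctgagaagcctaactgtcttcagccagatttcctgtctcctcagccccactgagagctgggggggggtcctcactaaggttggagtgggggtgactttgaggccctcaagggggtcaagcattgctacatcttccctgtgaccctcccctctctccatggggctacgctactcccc
Prtn3, chr10:79879417-79879666, plus strand: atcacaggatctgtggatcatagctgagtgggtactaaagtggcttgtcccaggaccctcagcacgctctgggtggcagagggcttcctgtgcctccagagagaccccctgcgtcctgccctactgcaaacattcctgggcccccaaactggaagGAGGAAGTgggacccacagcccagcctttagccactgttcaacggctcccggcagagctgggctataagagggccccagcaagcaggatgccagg
Lyz2, chr10:117282273-117282522, minus strand: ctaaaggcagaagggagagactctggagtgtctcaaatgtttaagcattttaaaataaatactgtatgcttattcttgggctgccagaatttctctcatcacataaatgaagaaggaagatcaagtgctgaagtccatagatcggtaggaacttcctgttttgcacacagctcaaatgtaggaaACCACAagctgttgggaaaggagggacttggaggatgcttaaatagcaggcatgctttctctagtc

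Both strands were searched. GAGGAAGT was found once in the Mpo sequence and once in the Prtn3 sequence, and 2.44% of all promoters hold it. Its core GGAAGT, which lies within those matches, was also found on the opposite strand of the Lyz2 sequence, and 19.7% of all promoters hold it. ACCACA was found in the Lyz2 sequence only (14.05% of all promoters), as was TTNNGNAA, a loose form of the C/EBP motif (36.8%). The C/EBP palindrome TTGCGCAA was in none of the 5 members' sequences (0.164% of all promoters), and the Cfp and Csf3r sequences held none of these 5 motifs. Spi1 itself had reads in 93 of 96 cells, while Cebpa, which encodes C/EBP alpha, had 3 reads in 1 yolk sac cell.

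Mpo encodes myeloperoxidase, the enzyme of azurophil granules that makes hypochlorous acid. It is on chromosome 11, from 87793581 to 87804413 on the plus strand (ENSMUSG00000009350.13, GENCODE M21 on GRCm38). In AGM, 33 of 48 cells had a read, and the lowest, median and highest cells were at 0, 68.5 and 937 CPM. In yolk sac, 14 of 16 cells had a read, with 0, 259 and 1044 CPM. The liver E12.5 cells included 9 of 16 with a read and stood at 0, 148.5 and 920 CPM. For liver E14.5 these values were 10 of 16 cells and 0, 116 and 3417 CPM.

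Liver E14.5 was split. Cells 1, 7, 10, 11 and 15 had 1861, 3417, 1678, 1239 and 2025 CPM of Mpo, 6 cells had no read, and cells 3 and 9 had 1.07 and 0.605 CPM. Those 5 cells held 91.2% of the group's Mpo reads, and all 5 also had Kit reads. Among the other 80 cells, only yolk sac cell 16 exceeded 1000 CPM of Mpo. Of the 4 wells rich in erythroid marker reads, 3 had no Mpo read and 1 had a single read. Cell 7, the highest for Mpo, also had reads of 5 macrophage markers, summing to 772 CPM, and their part in its Mpo level was not tested.

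With reads summed over each group, Mpo stood at 167.4 CPM in AGM (exact 95% Poisson interval 164.1 to 170.6), 359 in yolk sac (351 to 367), 291 in liver E12.5 (283 to 298) and 807 in liver E14.5 (794 to 819). Liver E14.5 was thus highest by pooled reads, yet its median cell was lower than that of yolk sac and of liver E12.5. The log2 ratio of pooled CPM, with 1 CPM added, was 2.26 for liver E14.5 over AGM, 1.47 over liver E12.5 and 1.17 over yolk sac. Yolk sac over AGM came to 1.10, and the ratio of liver E12.5 to yolk sac was -0.30. Without the 4 erythroid-rich wells, pooled Mpo in liver E14.5 was 1023 CPM. Without liver E14.5 cell 7, which held 31.3% of the group's Mpo reads, it was 598 CPM. Over the alternative settings, the ratio of liver E14.5 to yolk sac ran from 0.74 to 1.51 and did not always stay past 2-fold. Without liver E12.5 cell 8, pooled Mpo in liver E12.5 was 294 CPM.

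**Figure D1:**
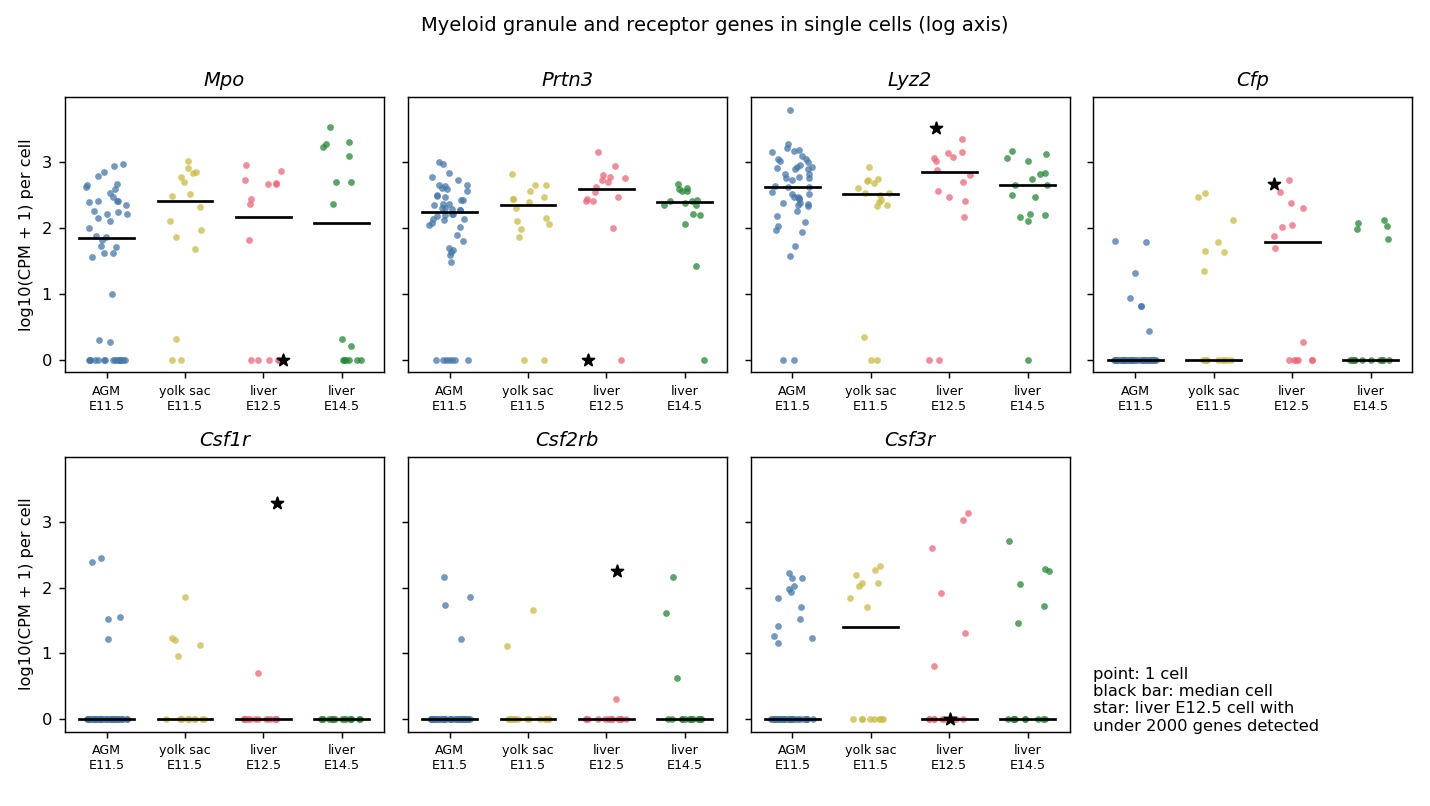
Level of each of the 7 genes in each cell, as log10(CPM + 1), by group; each point is 1 cell, the bar is the median cell and the star is liver E12.5 cell 8. The 5 liver E14.5 cells above 1000 CPM of Mpo and the star far above all other Csf1r points can be seen.

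Prtn3 encodes proteinase 3, a serine protease of the same granules. It lies on chromosome 10, 79874476 to 79883174, plus strand (ENSMUSG00000057729.12). Its spread over cells was the narrowest in liver E14.5, where the lowest, median and highest cells had 0, 246 and 463 CPM and 15 of 16 had a read. AGM cells ran through 0, 176.7 and 1009 CPM, and 41 of 48 had a read. Yolk sac cells had 0, 221.9 and 659 CPM and liver E12.5 cells 0, 388 and 1433 CPM, with a read in 14 of 16 cells of each.

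Pooled Prtn3 was 230.4 CPM in AGM (226.6 to 234.3), 234.5 in yolk sac (228.2 to 240.9), 265 in liver E14.5 (258 to 272) and 462 in liver E12.5 (453 to 472). Liver E12.5 was highest, by log2 ratios of 1.00 over AGM and 0.98 over yolk sac, and liver E14.5 over liver E12.5 gave -0.80. The first lies at the 2-fold line and ran from 0.85 to 1.16 over the alternative settings. Unlike Mpo, Prtn3 was read in all 4 erythroid-rich wells, at 113 to 260 CPM.

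Elane, which encodes neutrophil elastase and is the next protease gene along, starts 3072 bases after the end of Prtn3. It had 1 read in all 96 cells, in liver E12.5 cell 1, against 33382 reads of Prtn3. Both are on the plus strand. Ctsg, a further granule protease gene, had no entry among the deposited gene counts.

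Lyz2 encodes lysozyme M, a bacterial cell wall hydrolase used as a marker of monocytes, macrophages and granulocytes. It spans 117277331 to 117282321 on the minus strand of chromosome 10 (ENSMUSG00000069516.8). The lowest, median and highest AGM cells had 0, 426 and 6303 CPM, and 46 of 48 had a read. In yolk sac the values were 0, 328 and 835 CPM, in liver E12.5 0, 711 and 3305 CPM, and in liver E14.5 0, 454 and 1466 CPM. Reads were found in 14, 14 and 15 of 16 cells of these groups. The top of each range was 1 cell: AGM cell 37 was far above the next AGM cell, which had 1915 CPM, and the highest liver E12.5 cell was cell 8. Without cell 8, 13 of 15 liver E12.5 cells had a read and their median was 650 CPM.

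Pooled Lyz2 was lowest in yolk sac, at 348 CPM (341 to 356), then 547 in liver E14.5 (537 to 558), 673 in AGM (667 to 680) and 740 in liver E12.5 (728 to 753). Yolk sac over AGM gave a log2 ratio of -0.95, and liver E12.5 over yolk sac gave 1.09, or 1.02 without cell 8. Lyz1, the near-identical neighbour that Paneth cells express, had 2 reads in all cells. The longest coding transcripts of the pair are identical at 96.0% of aligned bases, and 15.4% of the 50-base windows of Lyz2 occur in Lyz1, so reads in those windows cannot be assigned to 1 gene.

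Prtn3 was read in 62 of the 66 cells with Mpo and in 22 of the 30 without it, and Lyz2 in 62 and 27 of them. Per kilobase of exon, the only scale on which genes are compared here, Lyz2 was highest in all 4 groups, at 265 to 563 CPM per kilobase. Prtn3 came next in AGM (133), yolk sac (135) and liver E12.5 (267), above Mpo (48.9, 104.8 and 84.9). In liver E14.5 this order was turned, with Mpo at 236 and Prtn3 at 152.97 CPM per kilobase.

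Cfp encodes properdin, the plasma protein that stabilises the alternative complement convertase and is stored in neutrophil granules. It is on the X chromosome, 20925454 to 20931555, minus strand (ENSMUSG00000001128.7). AGM was the low group: 7 of 48 cells had a read, 14.6% (exact Clopper-Pearson interval 6.07 to 27.8%), and the highest of them had 63.4 CPM. Yolk sac had 7 of 16 cells, 43.8% (19.8 to 70.1%), up to 335 CPM. Liver E12.5 had 10 of 16 cells, 62.5% (35.4 to 84.8%), up to 540 CPM, and liver E14.5 had 5 of 16, 31.2% (11.02 to 58.7%), all between 66.9 and 131 CPM.

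Cfp also differed widely between groups by pooled reads. It stood at 3.80 CPM in AGM (3.32 to 4.32), 35.1 in liver E14.5 (32.6 to 37.7), 63.2 in yolk sac (60.0 to 66.6) and 118 in liver E12.5 (113 to 123). The log2 ratio over AGM was 3.74 for yolk sac, 4.63 for liver E12.5 and 2.91 for liver E14.5, and liver E14.5 over liver E12.5 gave -1.72. These 4 ratios stayed past 2-fold under every alternative setting. Without cell 8, liver E12.5 had 113 CPM and 9 of 15 cells with a read. AGM cell 17 held 48.5% of the AGM reads, and without it the ratio of liver E12.5 to AGM was 5.30, that of yolk sac 4.41 and that of liver E14.5 3.58. Without yolk sac cell 7 the yolk sac ratio was 3.11, and liver E12.5 over yolk sac went from 0.89 to 1.52 and liver E14.5 over yolk sac from -0.83 to -0.20.

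**Figure D2:**
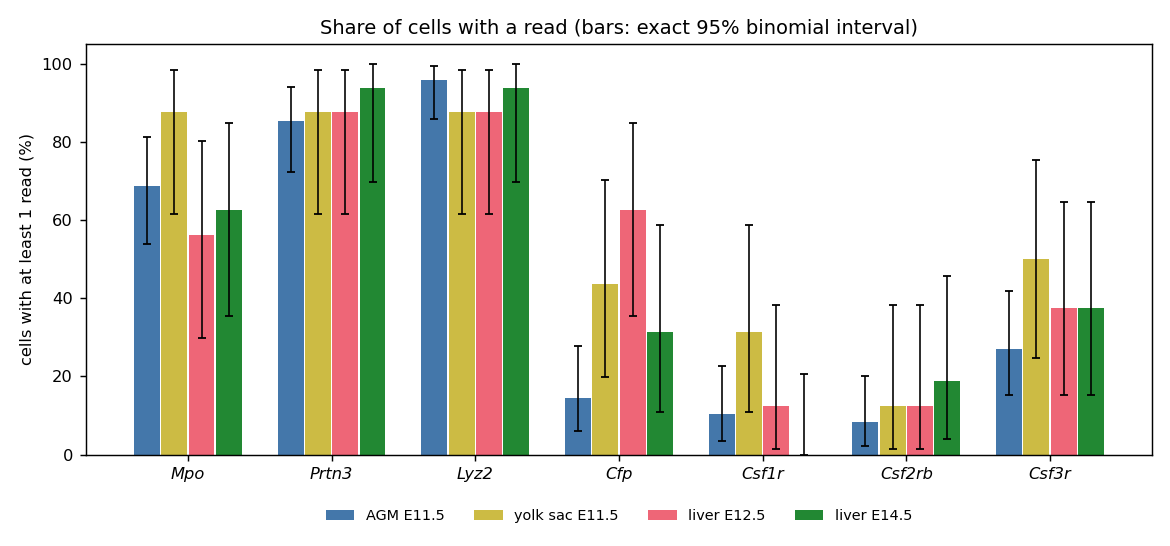
Share of cells with at least 1 read of each gene, in percent, by group, with exact 95% binomial intervals that cover counting error only. Lyz2 and Prtn3 exceed 85% in every group, while Csf1r runs from 0% in liver E14.5 to 31.2% in yolk sac.

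Csf1r encodes the receptor for colony-stimulating factor 1 (M-CSF) and interleukin 34, on which most macrophages depend. It is on chromosome 18, plus strand (ENSMUSG00000024621.15). In AGM, cells 7, 9, 19, 30 and 36 had 32.4, 15.4, 278, 245 and 34.3 CPM. In yolk sac, cells 1, 2, 3, 5 and 9 had 16.1, 12.6, 8.08, 15 and 69.8 CPM. Only cells 1 and 8 of liver E12.5 had reads, at 3.999 and 1958 CPM, and no liver E14.5 cell had any, which allows a share of cells with a read of up to 18.8% (3 of 16 cells) and sets no limit on cells that express the gene. The exact interval drawn in the plot of shares reaches 20.6%.

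The liver E12.5 level of Csf1r was that of cell 8. It held 99.2% of the group's Csf1r reads, and the pooled level was 25.9 CPM with it (23.7 to 28.3) and 0.213 without it (0.0580 to 0.545), from 4 reads. AGM stood at 13.1 CPM (12.2 to 14.03) and yolk sac at 7.62 (6.52 to 8.86). With cell 8, the log2 ratio of liver E12.5 was 0.93 over AGM and 1.64 over yolk sac. Without it both turned, to -3.54 and -2.83. Cell 8 also had 7917 CPM of C1qb and 7925 of C1qc, subunits of complement C1q, 2430 of Mrc1, the mannose receptor, and 5043 of Hbb-y, an embryonic globin. It had no read of Mpo, Prtn3 or Csf3r, nor of Spi1 or Itgam.

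In liver E14.5, Csf1r was at least 89.8-fold lower than in AGM and at least 52.3-fold lower than in yolk sac, where 3 reads summed over the group were taken as the floor. Single cells set these bounds: without AGM cell 30 the first was 45.97-fold, and without yolk sac cell 9 the second was 27.04-fold. Against liver E12.5 it was at least 177.9-fold lower with cell 8. Without cell 8 no fold is given, since the interval of the 4 reads left reaches below the floor of 0.146 CPM. AGM cells 19 and 30 held most of the AGM reads, and leaving out cell 30 took yolk sac over AGM from -0.71 to 0.16. Without cell 19 that ratio was -0.12, and without yolk sac cell 9 it was -1.51. With liver E12.5 cell 8 kept, liver E12.5 over AGM was 1.52 without AGM cell 19 and 1.81 without AGM cell 30, and over yolk sac it was 2.45 without yolk sac cell 9. Liver E14.5 has no Csf1r read, so its log2 ratios depend on the added 1 CPM and are no bounds. On that scale, liver E14.5 over AGM went from -3.82 to -3.23 without AGM cell 19 and to -2.94 without AGM cell 30, and liver E14.5 over yolk sac from -3.11 to -2.30 without yolk sac cell 9.

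**Figure D3:**
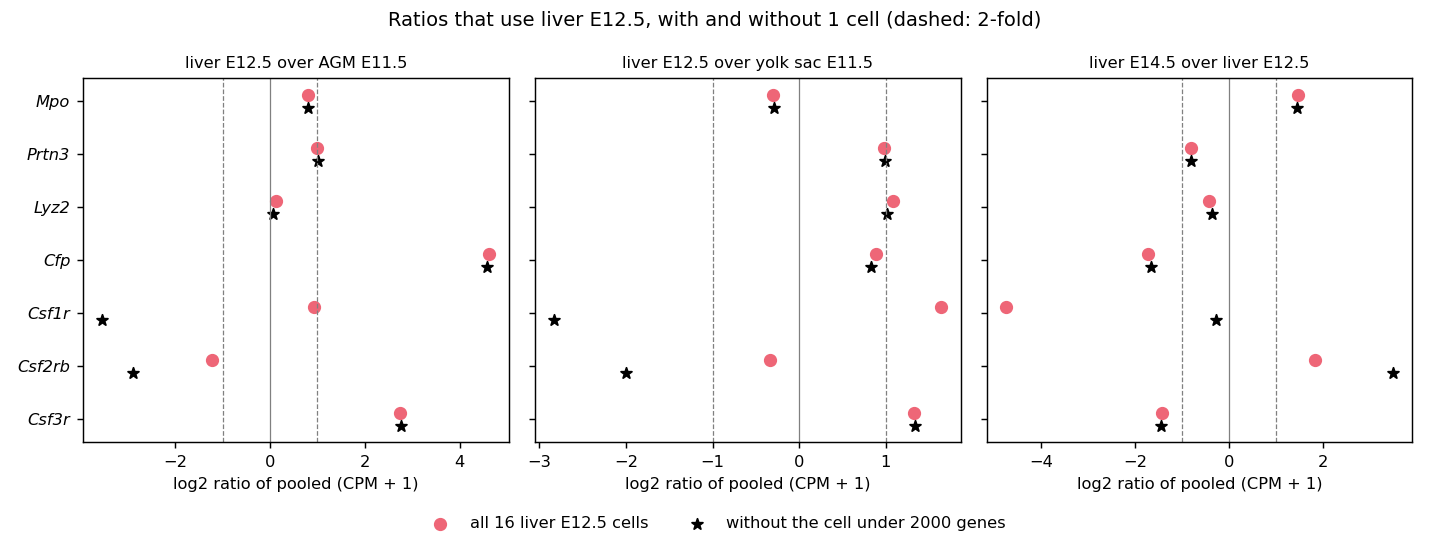
Log2 ratio of pooled CPM, with 1 CPM added, for the 7 genes in the 3 comparisons that use liver E12.5, over all 16 liver E12.5 cells (circles) and without cell 8 (stars); dashed lines mark 2-fold. Csf1r and Csf2rb move between circle and star, Csf1r from 0.93 to -3.54 over AGM, and the Csf1r points of the right panel rest on 0 liver E14.5 reads and are no bounds.

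Csf2rb encodes the common beta chain of the receptors for interleukin 3, GM-CSF and interleukin 5, and pairs with an alpha chain for each ligand. It is on chromosome 15, 78325752 to 78353847, plus strand (ENSMUSG00000071713.6 in GENCODE M21, ENSMUSG00000071713.4 in the deposited counts). AGM cells 7, 11, 23 and 33 had 15.4, 142.3, 53.9 and 70.6 CPM. Yolk sac cells 2 and 9 had 44.99 and 12.03 CPM. In liver E12.5 cells 1 and 8 had 1.00 and 175.8 CPM, and in liver E14.5 cells 7, 8 and 15 had 3.28, 141.7 and 40.3 CPM.

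Each group's level rested on 4 or fewer cells. Pooled Csf2rb was 6.83 CPM in AGM (6.19 to 7.53), 3.23 in yolk sac (2.53 to 4.06), 2.36 in liver E12.5 (1.72 to 3.16) and 10.9 in liver E14.5 (9.50 to 12.4). Liver E12.5 cell 8 held 97.8% of its group's reads. Without it 1 read was left, and AGM was then 129-fold higher than liver E12.5, with an exact counting interval of 22.9 to 5088. With AGM cell 11 also left out, which held 55.6% of the AGM reads, it was 58.6-fold higher (10.4 to 2329). Liver E14.5 cell 8, one of the erythroid-rich wells, held 71.4% of its group's Csf2rb reads, and leaving it out moved the log2 ratio of liver E14.5 to AGM from 0.60 to -0.87. The same omission took liver E14.5 over yolk sac from 1.49 to 0.02 and over liver E12.5 from 1.82 to 0.35. Without AGM cell 11, yolk sac over AGM went from -0.89 to 0.04, and without yolk sac cell 2 to -2.19. Omitting AGM cell 11 also took liver E12.5 over AGM from -1.22 to -0.29 and liver E14.5 over AGM to 1.53. Omitting yolk sac cell 2 took liver E12.5 over yolk sac from -0.33 to 0.97 and liver E14.5 over yolk sac to 2.79.

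The alpha chains were read more often than the beta chain. Csf2ra, the GM-CSF receptor alpha chain, had reads in 33 cells and Il3ra, the interleukin 3 receptor alpha chain, in 34. At least 1 of them was read in 7 of the 11 cells with Csf2rb and in 43 of the 85 cells without it. In liver E14.5 none of the 3 Csf2rb cells had either alpha chain. Csf2rb2, a near-identical copy on the opposite strand of chromosome 15, had 15 reads in 3 yolk sac cells. Of the 50-base windows of the longest Csf2rb coding transcript, 18.4% occur in that of Csf2rb2, and their aligned bases are 91.5% identical, so their reads are uncertain in the same way as those of Lyz2.

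Csf3r encodes the G-CSF receptor, the main growth factor receptor of the neutrophil lineage. It is on chromosome 4, 126024550 to 126044440, plus strand (ENSMUSG00000028859.14). Reads were found in 13 of 48 AGM cells, 27.1% (15.3 to 41.8%), between 13.3 and 167.7 CPM. Yolk sac had 8 of 16 cells, 50% (24.7 to 75.3%), from 48.9 to 213.3 CPM. The liver groups had 6 of 16 cells each, 37.5% (15.2 to 64.6%).

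The liver E12.5 cells with Csf3r were unlike each other. Cells 1, 2, 7, 12, 14 and 15 had 81.0, 19.6, 1376, 1078, 397 and 5.32 CPM, and cells 7 and 12 held 76.5% of the group's reads. In liver E14.5, cells 1, 3, 5, 6, 11 and 12 had 193.8, 174.7, 112.7, 511.7, 28 and 51.5 CPM. No AGM or yolk sac cell reached the level of the 3 highest liver E12.5 cells.

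Pooled Csf3r was 23.2 CPM in AGM (21.99 to 24.4), 59.3 in liver E14.5 (56.0 to 62.7), 64.2 in yolk sac (60.9 to 67.6) and 162.1 in liver E12.5 (156.4 to 167.9). The log2 ratio over AGM was 1.43 for yolk sac, 2.75 for liver E12.5 and 1.32 for liver E14.5. Without liver E12.5 cell 7 the pooled level there was 78.9 CPM, and the ratio over AGM was 1.72. That cell also set the distance to yolk sac, which went from 1.32 to 0.29 without it, and the liver E14.5 over liver E12.5 ratio, which went from -1.43 to -0.41. Liver E14.5 cell 6 held 41.1% of its group's reads. Without it the ratio over AGM was 0.64, that over liver E12.5 was -2.11 and that over yolk sac went from -0.11 to -0.79. Cell 8 of liver E12.5 had no Csf3r read, and the pooled level without it was 164.2 CPM.

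The number of the 7 genes read per cell had a median of 3 in AGM and liver E14.5 and of 4 in yolk sac and liver E12.5. All 7 were read in yolk sac cells 2 and 9 and in liver E12.5 cell 1, and none in yolk sac cell 10. No receptor was read in 52 cells, 1 receptor in 36, a pair in 4 and all 3 in 4. The 12 cells with Csf1r and the 11 with Csf2rb all had Lyz2 reads, as did 89 of all 96 cells. Cfp and Csf3r were read together in 16 cells, of 29 with Cfp and 33 with Csf3r. Cells with more genes detected had more of the 7, with Pearson's r of 0.53 over 96 cells, a description in which both counts come from the same library.

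**Figure D4:**
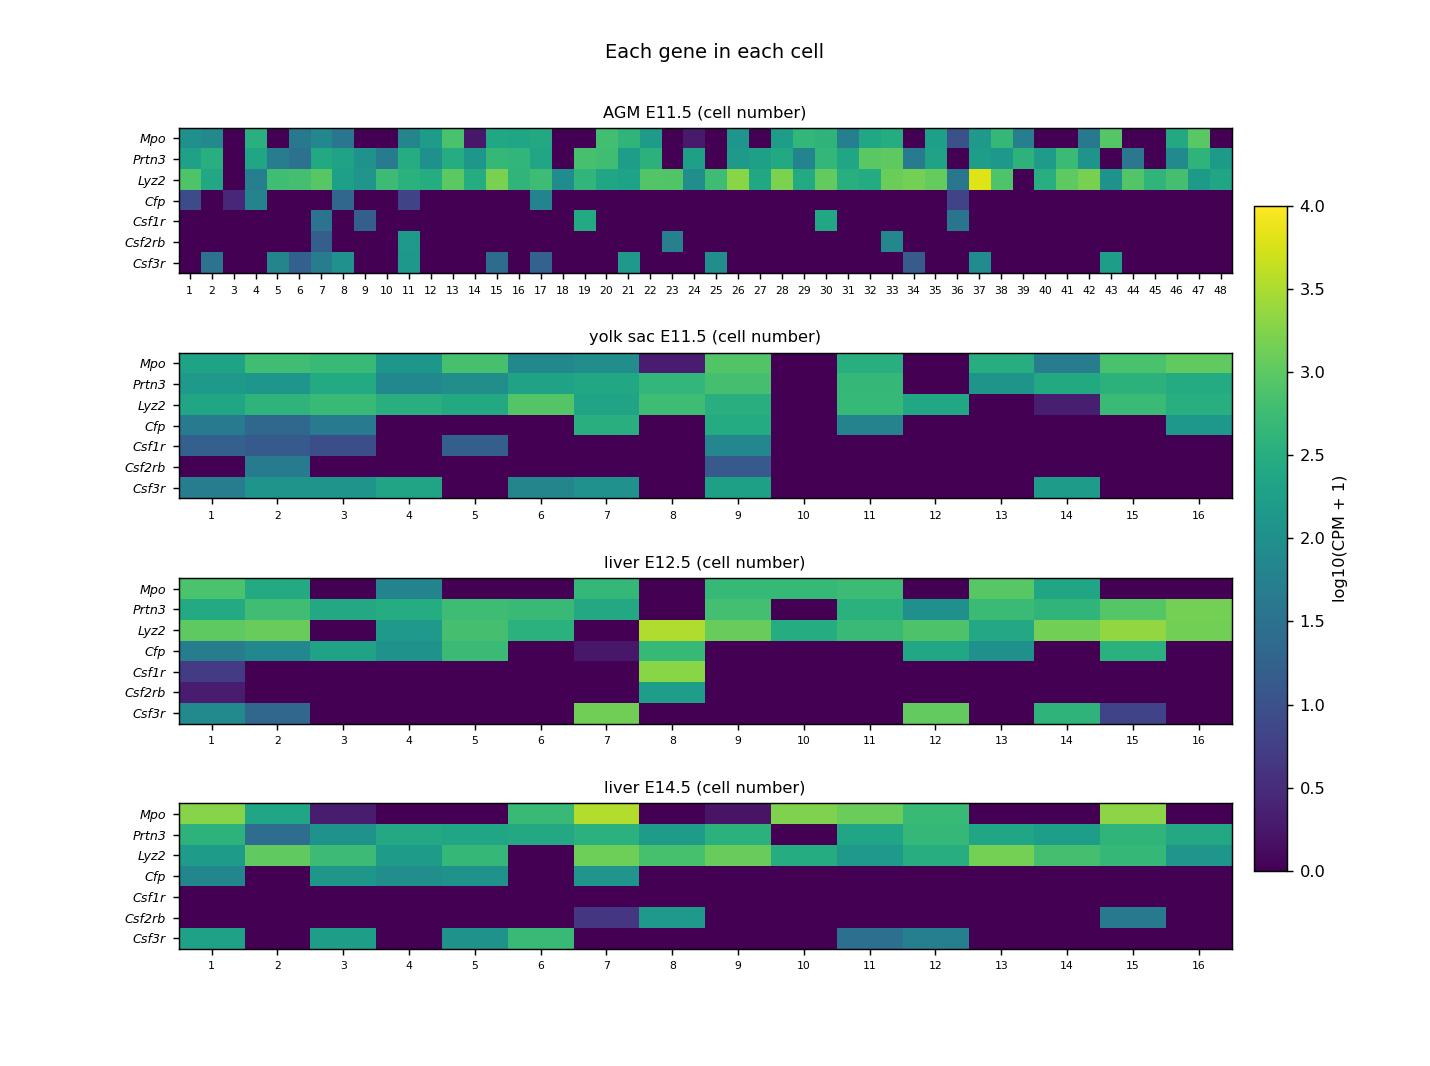
Level of the 7 genes in each cell, as log10(CPM + 1) by colour, with 1 column per cell and 1 panel per group. Lyz2 and Prtn3 fill most columns, and receptor reads are scattered over single cells, with liver E12.5 cell 8 alone bright for Csf1r.

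**Figure D5:**
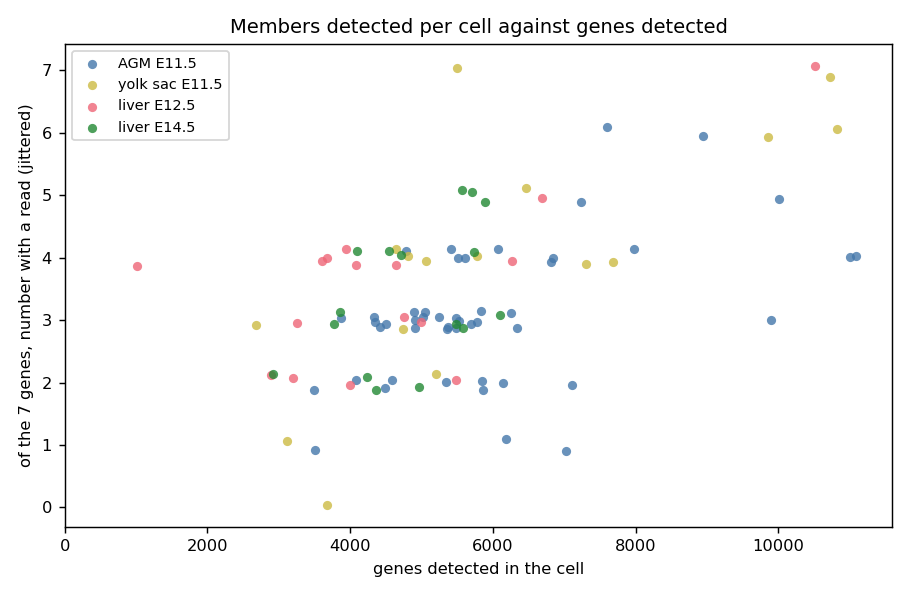
Number of the 7 genes with a read in each cell (jittered) against the number of genes detected in it, with colours for the groups. Liver E12.5 cell 8 stands alone at 1011 genes, and yolk sac cell 9 had all 7 at 5494 genes.

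The calls of the 7 were set against those of all genes. Here a gene is called when its log2 ratio of pooled CPM exceeds 1 in either direction. For yolk sac over AGM, 29.6% of the 15239 genes were called, and 3 of the 7 were. Mpo, Cfp and Csf3r were the 3, all higher in yolk sac, where 8.61% of all genes were called higher and 21% lower. For liver E12.5 over AGM, 41.7% of genes and 4 of the 7 were called, 3 higher (15.6% of all genes) and 1 lower (26%). Without cell 8 these were 41.6% and 5 of the 7, 3 higher (15.6%) and 2 lower (26%).

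For liver E12.5 over yolk sac, 39.2% of genes and 3 of the 7 were called, 3 higher (19.7%) and 0 lower (19.5%). Without cell 8 they were 39.1% and 4 of the 7, 2 higher (19.7%) and 2 lower (19.4%). For liver E14.5 over liver E12.5, 36.9% of genes and 5 of the 7 were called, 2 higher (18.7%) and 3 lower (18.2%), and without cell 8 36.9% and 4, 2 higher (18.7%) and 2 lower (18.2%). Over AGM, liver E14.5 had 40.5% of genes and 4 of the 7 called, 3 higher (15.3%) and 1 lower (25.3%). Over yolk sac it had 36.9% of genes and 3 of the 7, 2 higher (18.8%) and 1 lower (18.1%). The 6 comparisons share groups and are not independent of each other.

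The median log2 ratio of the 7 genes was 0.03 for yolk sac over AGM, beside -0.20 for all genes. It was 0.93 for liver E12.5 over AGM and 0.81 without cell 8, beside -0.20 for all genes. It was 0.98 over yolk sac and 0.83 without cell 8, beside 0.00 for all genes. For liver E14.5 over liver E12.5 it was -0.80, or -0.37 without cell 8, beside 0.00. Liver E14.5 gave 0.60 over AGM, beside -0.23, and 0.18 over yolk sac, beside 0.00.

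In the wider list of granule and effector genes, 17 of 24 had an entry among the deposited gene counts, and 14 had at least 30 reads. For liver E12.5 over AGM, 5 of the 14 were called higher, Prtn3 and Cfp among them, and 2 lower, where 15.6% of all genes were called higher and 26% lower. Yolk sac over AGM gave 4 higher and 2 lower (8.61% and 21% of all genes). Liver E12.5 over yolk sac gave 2 and 1 (19.7% and 19.5%), as did liver E14.5 over liver E12.5 (18.7% and 18.2%). Liver E14.5 had 5 and 1 over AGM (15.3% and 25.3%) and 3 and 0 over yolk sac (18.8% and 18.1%). Srgn, which encodes the proteoglycan serglycin that packs granule contents, had 566 CPM in liver E12.5 (556 to 577) and 242 in AGM (238 to 246), a log2 ratio of 1.22. Ncf1, a cytosolic subunit of the NADPH oxidase, had 49.4 CPM in yolk sac (46.5 to 52.4) and 13.3 in AGM (12.4 to 14.2), a log2 ratio of 1.82. Ms4a3, a marker of granulocyte and monocyte progenitors, went the other way, with 0.672 CPM in yolk sac, 4.93 in AGM and a log2 ratio of -1.83, and yolk sac cell 3 held 60.0% of its 15 reads there.

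Of 19 listed receptors and their adaptors, 17 had an entry among the deposited gene counts, and 15 had at least 30 reads. For liver E12.5 over AGM, 7 were called higher, Csf3r among them, and 2 lower, of which Csf2rb was 1, but 5 and 3 without cell 8. Of all genes 15.6% were called higher and 26% lower, with or without that cell. Fcer1g and Tyrobp, adaptors with signalling motifs for immune receptors, had log2 ratios of 1.69 and 1.25 with cell 8 and 0.92 and 0.62 without it. Flt3, a cytokine receptor of multipotent and lymphoid-primed progenitors, did not depend on that cell: it had 187.5 CPM in liver E12.5 (181.4 to 193.7) and 51.1 in AGM (49.3 to 52.9), and its log2 ratio was 1.86 with cell 8 and 1.87 without it. Itgb2, the beta 2 integrin chain, had 80.2 CPM in yolk sac and 52.9 in liver E14.5, against 25.5 in AGM and 16.5 in liver E12.5. Without AGM cell 23 its AGM level was 13.34 CPM, and without cell 11 of liver E12.5 the level there was 9.40 CPM. For liver E14.5 over liver E12.5, 4 were called higher and 7 lower, or 4 and 5 without cell 8, beside 18.7% and 18.2% of all genes. Csf2rb was among the 4, and Csf1r and Csf3r among the 7.

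Of the 5 listed ligand genes only Csf1, which encodes M-CSF, had an entry among the deposited gene counts. It had 7.42 CPM in AGM (3.55 without cell 37), 23.8 in yolk sac (2.64 without cell 6, which held 89.8% of the reads), 0.420 in liver E12.5 and no read in liver E14.5.

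Transcription factors of the myeloid lineages differed in several directions, and 9 of 10 listed had at least 30 reads. For yolk sac over AGM, 0 were called higher and 2 of the 9 lower, beside 8.61% and 21% of all genes. Cebpb, which encodes C/EBP beta, had 214.8 CPM in AGM (211.1 to 218.5) with reads in 46 of 48 cells, and 26.9 in yolk sac, 20.3 in liver E12.5 and 34.6 in liver E14.5 (17.8 without cell 9). Gfi1, a repressor needed for granulocyte development, had 36.8 CPM in AGM, 6.10 in yolk sac, 81.3 in liver E12.5 and 68.1 in liver E14.5 (33.1 without cell 14). Klf4, a factor of monocytes, was read in 24 AGM cells at 19.6 CPM and 6 yolk sac cells at 25.9 CPM (14.51 without cell 11), with no read in liver E12.5 and 1 read in liver E14.5. Spi1 was near level, at 435 CPM in AGM, 429 in yolk sac, 332 in liver E12.5 and 345 in liver E14.5.

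All 14 genes of receptor signalling had at least 30 reads. For liver E14.5 over liver E12.5, 0 were called higher and 4 lower, or 1 and 4 without cell 8, beside 18.7% and 18.2% of all genes. Liver E12.5 had 5 higher and 2 lower over AGM (15.6% and 26% of all genes) and over yolk sac (19.7% and 19.5%). Without cell 8 both were 4 and 2 (15.6% and 26%, and 19.7% and 19.4%). Liver E14.5 had 3 and 4 over AGM (15.3% and 25.3%) and 3 and 5 over yolk sac (18.8% and 18.1%). Yolk sac over AGM gave 2 and 4 (8.61% and 21%). Jak2, the kinase that several cytokine receptors use, had 18.1 CPM in liver E12.5 (16.2 to 20.1) and 0.194 in liver E14.5 (0.0529 to 0.498), from 4 reads. In liver E12.5 it was read in 5 of 16 cells. Its log2 ratio of liver E14.5 to liver E12.5 was -4.00 with liver E12.5 cell 8 and -3.58 without it. Lyn, a Src family kinase of myeloid cells, had 129 CPM in liver E12.5 and 46.3 in liver E14.5, a log2 ratio of -1.46. Liver E14.5 cell 9 held 59.96% of the Lyn reads there, and without it the level was 20.2 CPM. Socs3, an inhibitor of G-CSF receptor signalling, had 20.4 CPM in AGM (12.2 without cell 23) and 9.37 in yolk sac (4.59 without cell 3), with no read in either liver group.

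By likeness of log2(CPM + 1) over the 96 cells, among 10905 genes read in at least 10 cells, the gene nearest to Mpo was Gm11505, with Pearson's r of 0.83. It is annotated as an antisense gene within Mpo, on chromosome 11 from 87795784 to 87801144, minus strand, and 512 of its 737 exon bases lie in exons of Mpo. All 50 cells with Gm11505 reads also had Mpo reads. Its reads came to 1.96% of those of Mpo over all cells, and the strand setting of the counting is not given in the sources used here, so reads of the pair cannot be told apart. Next were Gnl3, a nucleolar GTPase, at 0.52 and Cd52 at 0.47.

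For the other genes the nearest were Samsn1 for Prtn3 (0.49), Tfdp1 for Lyz2 (0.39), Dlk1 for Cfp (0.45), Pltp for Csf1r (0.58), Gm29948 for Csf2rb (0.57) and Aplf for Csf3r (0.50). Between members the highest r was 0.33, for Csf1r and Csf2rb, and Mpo with Prtn3 gave 0.27. Csf1r and Csf2rb were read together in 5 cells, liver E12.5 cell 8 among them. These are weak relations in sparse counts, and all points share a cell's library and depth.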

How the data were processed

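The deposited values are raw counts of reads, whole numbers in a table of 19949 gene rows and 96 cell columns. Per the submitters' processing notes, FastQC, Trimmomatic 0.36, STAR and HTSeq were used with mm10. The annotation, strand setting and other parameters are not given in the sources used here. All 96 columns were matched to a cell by name (0 were left unmapped), and the 113 rows sharing a symbol were summed.

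Counts were pooled per group as CPM (reads scaled to a total of 1000000). Ratios are log2 of pooled CPM plus 1, which understates the change of low genes. Intervals are exact 95% Poisson or Clopper-Pearson intervals. A group with 0 reads was given a floor of 3 reads, and 0 cells a limit of 3 cells. No test was made, since each group counts as 1 sample. No doublet caller was run, since wells were sorted to hold 1 cell. Levels per kilobase use exon bases of GENCODE M21.

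The members and lists were chosen with earlier results of these data known. Genes of the wider lists were named by size: at most 4 per comparison, read in at least 4 cells of the higher group, with at most 50% of its reads from 1 cell. Some were named for their role instead, with a value. The 3 nearest genes by Pearson's r were found for each member. Alternatives were leaving out cells under 2000 genes, the mean of cells' CPM, thinning to 690000 reads, 10 CPM added, median-of-ratios scaling, no read minimum, a level of at least 10 CPM as detection, summed near-identical copies, and leaving out cells. The calculation was tested on simulated data. There, all cells of a group shared the same composition, so that check does not cover the spread between cells seen here. Python 3.11.15, numpy 2.4.6, pandas 2.3.3, scipy 1.17.1, biopython 1.88 and matplotlib 3.10.9 were used.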

Additional observations from a re-analysis of the deposited data

How the results depend on the processing

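Of 42 member ratios, 22 were past 2-fold. Of these, 20 kept their direction under every alternative run, and 9 also stayed past 2-fold: Cfp in 4 comparisons, Csf3r of yolk sac and of liver E12.5 over AGM, Mpo of liver E14.5 over AGM and over liver E12.5, and Csf1r of liver E14.5 over AGM. The Csf1r ratios of liver E14.5 count among the 20, but with 0 reads in that group their direction could not turn. Their size depends on the CPM added, so their place in these counts is no sign of stability. The directions that turned were Csf2rb in liver E12.5 over AGM, 0.81 by the mean of the cells' CPM, and Csf1r in liver E12.5 over yolk sac. That Csf1r ratio was -2.83 without cells under 2000 genes (also the lowest value when single cells were left out, where the highest was 2.45), -2.67 after thinning, which leaves out that cell, and -2.03 without the top cell of each group.

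With 10 CPM added, the share of all genes past 2-fold was 5.39% for yolk sac over AGM, 14.54% for liver E12.5 over AGM, 15.6% for liver E12.5 over yolk sac and for liver E14.5 over liver E12.5, 13.1% for liver E14.5 over AGM and 13.2% over yolk sac. The members past 2-fold were then 2 for liver E12.5 over AGM and 1 for liver E14.5 over yolk sac. Leaving out single cells, that count for liver E12.5 over AGM was 2 at its lowest and for liver E12.5 over yolk sac reached 5 at its highest. The mean of cells' CPM and thinning each gave 5 for liver E12.5 over yolk sac, and thinning gave 3 for liver E14.5 over liver E12.5. For single-cell omission, the mean of cells' CPM and thinning no share of all genes is given. The counts under them therefore cannot be set against all genes. Apart from what is stated, the cause was not tested. Leaving out the 4 erythroid-rich wells was chosen after seeing the data, and gave log2 ratios of Mpo in liver E14.5 of 2.60 over AGM and 1.81 over liver E12.5. No paired analysis was possible because the numbers name single cells and the results come from no test. Depth limits what rests on single reads: thinned to 690000 reads a cell, Csf1r was still read in 5 of 16 yolk sac cells and Csf2rb in 4 AGM cells, while the 1 Csf2rb read of liver E12.5 cell 1 was lost.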

Other observations

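Yolk sac cell 10, with 0 reads of the 7 genes, had 3682 genes detected and reads of 4 of the 10 stem and progenitor marker genes. It had no read of Kit, Ptprc, Procr, Ly6a or Cdh5, and neither had yolk sac cells 8 and 16. Cebpe, which encodes C/EBP epsilon, a factor of later granule genes, had reads in 4 of 48 AGM cells. AGM cell 19 held 66.7% of its 54 reads. No cell of the other groups had a read, but these had only 16 cells each, and the exact interval there reaches 20.6%. Ltf, which encodes lactoferrin of secondary granules, had reads in 3 AGM cells, 4 yolk sac cells, 1 liver E12.5 cell and 3 liver E14.5 cells. Plppr3, on the minus strand, shares exon bases with the upstream end of the GENCODE M21 model of Prtn3, and had 25.2 CPM in AGM, 28.6 in yolk sac (9.99 without cell 8), and 130 in each liver group, which cannot be told apart from Prtn3 reads there without strand.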
